A study of Mus musculus with 26 samples.

Results

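Tet2, Dnmt3a, Asxl1, Idh1, Idh2, Srsf2, Sf3b1, U2af1, Cbl and Sh2b3 are the mouse counterparts of genes that, in people with myeloproliferative neoplasms, are found mutated together with the JAK2V617F driver. These 10 genes were taken by symbol from the 23416 genes of the deposited expression table, and all 10 were above the filter on low values that left 12116 genes for testing. The samples were haematopoietic stem cells (HSCs), which self-renew in the bone marrow and give rise to all blood lineages, purified by FACS and profiled with Smart-Seq2, a full-length RNA-seq method for low cell input. There were 7 libraries with JAK2V617F and Ezh2 loss (double mutant), 7 with JAK2V617F alone, 7 with Ezh2 loss alone and 5 controls. The double-mutant label spells the Jak2 change with a digit missing, and it was read here as JAK2V617F. JAK2V617F is an activating change of the kinase that transmits cytokine signals, and Ezh2 is the catalytic subunit of Polycomb repressive complex 2, which methylates histone H3 at lysine 27. The controls are labelled only as such, and the labels give no Cre or promoter, no allele structure, strain, age or sex and no number of cells per library. They also do not say whether libraries of a group came from separate mice, so each p-value below is measured against the spread between libraries, which may be technical.

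The library titles come in 2 styles, with the number before the group code (15 libraries) or after it (11 libraries), and the labels do not say what the style marks. Number-first titles belong to 7 of 7 double-mutant, 2 of 7 JAK2V617F, 2 of 7 Ezh2 loss and 4 of 5 control libraries. Style was therefore a term in the fit (limma on log2 of RPKM + 1, Benjamini-Hochberg adjustment over all 12116 genes, a gene called at adjusted p under 0.05), and results without it are given where they differ. Estimated depth was 7.82 to 29.2 M reads per library (M, mega), with means of 19.9 M in number-first and 11.8 M in number-last libraries. Ezh2 averaged 17.4 ± 9.07 RPKM in double-mutant, 27.1 ± 8.21 in JAK2V617F, 17.6 ± 9.0 in Ezh2 loss and 23.7 ± 10.4 in control libraries (SD), and neither it nor Jak2 was called in any comparison. The deleted part of Ezh2 is not named in the labels, and a base change in Jak2 cannot be seen in gene totals, so these levels do not check the genotypes. The 14 HSC markers examined summed to 1035 to 2052 RPKM per library, and each was above 0 in every library except Fgd5 and Ctnnal1, which were at 0 in 1 library each. Neutrophil and monocyte markers (13 of 14 in the table) summed to 249.7 to 52347 RPKM (median 917) in double-mutant and 405 to 17960 (median 531) in JAK2V617F libraries. The sums were 742 to 38621 RPKM (median 16322) in Ezh2 loss and 263 to 821 (median 417) in control libraries. Elane, Mpo, Ctsg and Csf1r were at 0 in every JAK2V617F library and Lcn2, Retnlg and Ctsg in every control. Prtn3, of the same list, was at 199 to 1181 RPKM over all libraries.

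The 10 genes act at 5 places in the cell's regulatory machinery. Tet2 oxidises 5-methylcytosine and Dnmt3a deposits it, so together they set DNA methylation. Asxl1 is the cofactor of the Bap1 deubiquitinase that removes ubiquitin from histone H2A. Idh1 (cytosolic) and Idh2 (mitochondrial) make 2-oxoglutarate, the cosubstrate of Tet enzymes. Sf3b1 and U2af1 recognise the branch point and the AG of the 3′ splice site, and Srsf2 is an SR protein that binds exonic enhancers. Cbl is an E3 ubiquitin ligase that attenuates activated receptor tyrosine kinases, and Sh2b3 (LNK) is an adaptor that restrains Jak2 signalling. In patients, loss of Tet2, Dnmt3a, Cbl or Sh2b3 function and altered function of the splicing factors or the Idh enzymes are the usual lesions, and this study altered none of these genes.

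The levels of the 10 genes, as RPKM, which is per length and can be set side by side, fell into a high tier and a low tier. Srsf2 averaged 717 RPKM over the 26 libraries, above 99.3% of tested genes, and Idh2 averaged 190.5 RPKM, above 95%. Sf3b1 averaged 82.1, Idh1 47.5 and U2af1 45.5 RPKM. The low tier began with Dnmt3a at 8.23 RPKM, followed by Asxl1 at 5.52, Tet2 at 4.49, Sh2b3 at 3.74 and Cbl at 1.70 RPKM, which was above 11.9% of tested genes. U2af1, the lowest mean of the high tier, was above Dnmt3a in 26 of 26 libraries, but Idh1 was below Dnmt3a in JAK2V617F replicate 4 (5.68 against 9.31 RPKM). Some neighbours in this order did not differ beyond their spread. Idh1 exceeded U2af1 in 13 of 26 libraries, Asxl1 exceeded Tet2 in 16, Tet2 exceeded Sh2b3 in 15 and Sh2b3 exceeded Cbl in 17. The spread itself ran from a coefficient of variation of 24.9% for Sf3b1 and 28.9% for Idh2 to 87.7% for Sh2b3 and 122% for Cbl.

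**Figure D1:**
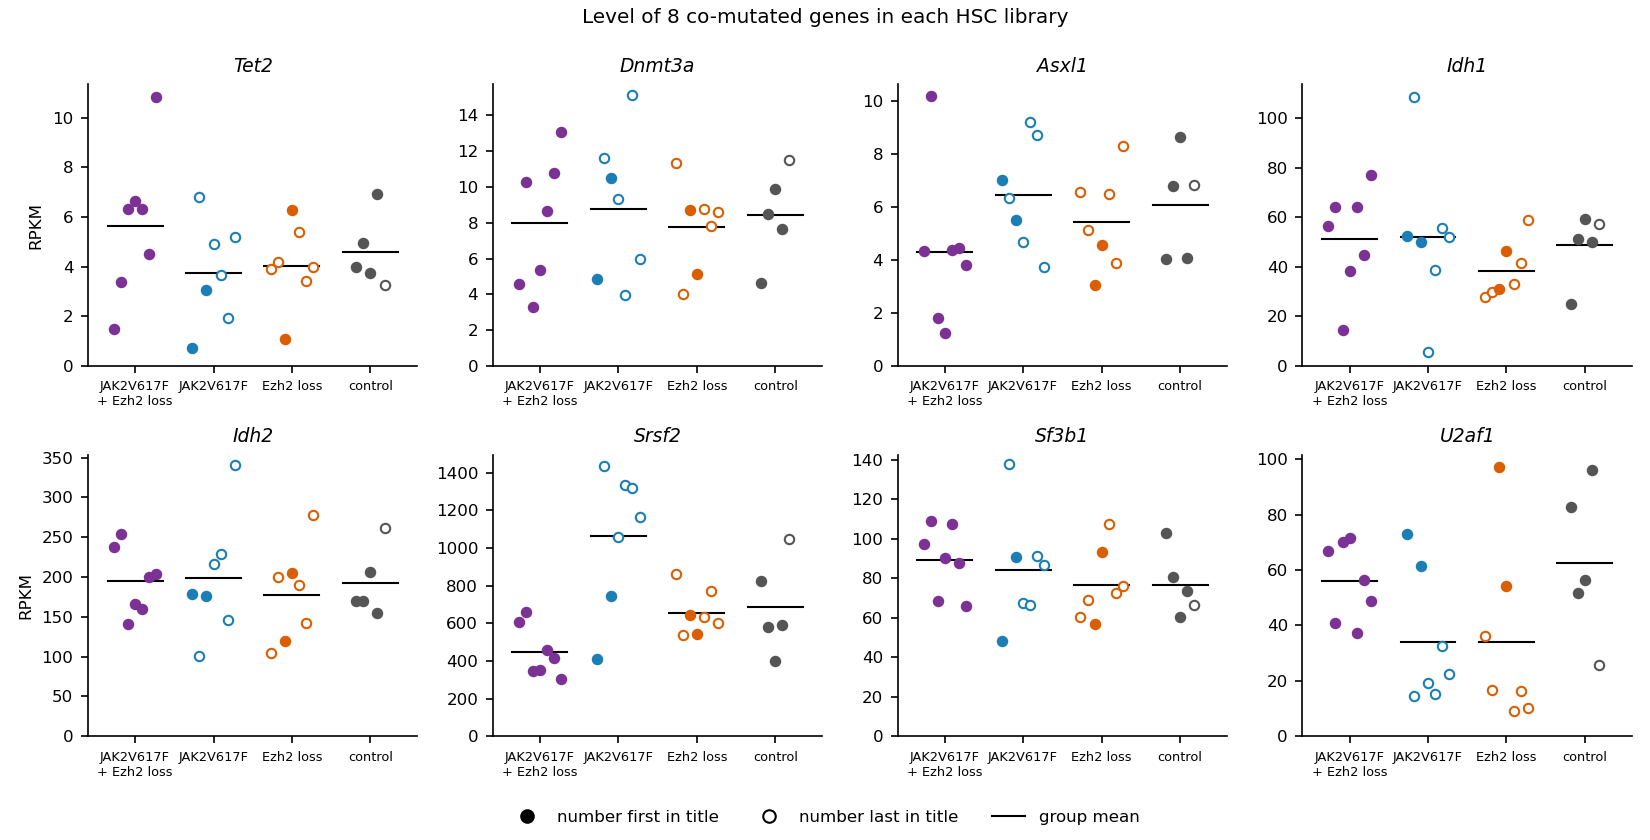
RPKM of 8 of the 10 genes in each library (y axis, linear from 0), by genotype (x axis); filled points have the number first in the title, open points have it last, and black lines are group means. The 4 genotypes overlap in every panel, and U2af1 separates by point style, with 37.4 to 97.1 RPKM in filled and 9.06 to 36.1 RPKM in open points.

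No member was called in any of the 7 comparisons between genotypes, over 70 values in all, with a smallest adjusted p of 0.318 (limma). These comparisons called few genes of any kind. Of all tested genes, 0.00825% were called in the double mutant against control, 0% in JAK2V617F against control and in Ezh2 loss against control, and 0.0990% in JAK2V617F against Ezh2 loss. The share was 0.0330% in the double mutant against JAK2V617F and 0% in the double mutant against Ezh2 loss and in the interaction (the effect of Ezh2 loss in JAK2V617F cells minus that in cells without it). At an unadjusted p under 0.05 there were 5 member values of 70, while of all 12116 genes 748, 501 and 736 reached it in the double mutant, JAK2V617F and Ezh2 loss against control. In JAK2V617F against Ezh2 loss 1002 genes did, in the double mutant 950 against Ezh2 loss and 977 against JAK2V617F, and in the interaction 738. The members' median log2 difference was -0.05 in the double mutant, -0.09 in JAK2V617F and -0.27 in Ezh2 loss against control, and that of all tested genes was -0.01, -0.02 and -0.03. The genotype groups overlapped for all 10 members in each of the 6 pairs of genotypes. Among all tested genes, the share without overlap was 0.388% for the double mutant, 0.264% for JAK2V617F and 0.388% for Ezh2 loss against control, 0.116% for JAK2V617F against Ezh2 loss, 0.801% for the double mutant against JAK2V617F and 0.578% with Ezh2 loss in that place. Within number-first titles it was 0.718% for the double mutant against control, with 0 members. In bulk samples a lower level can mean fewer cells with the RNA or less RNA per cell, and these cannot be told apart.

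**Figure D2:**
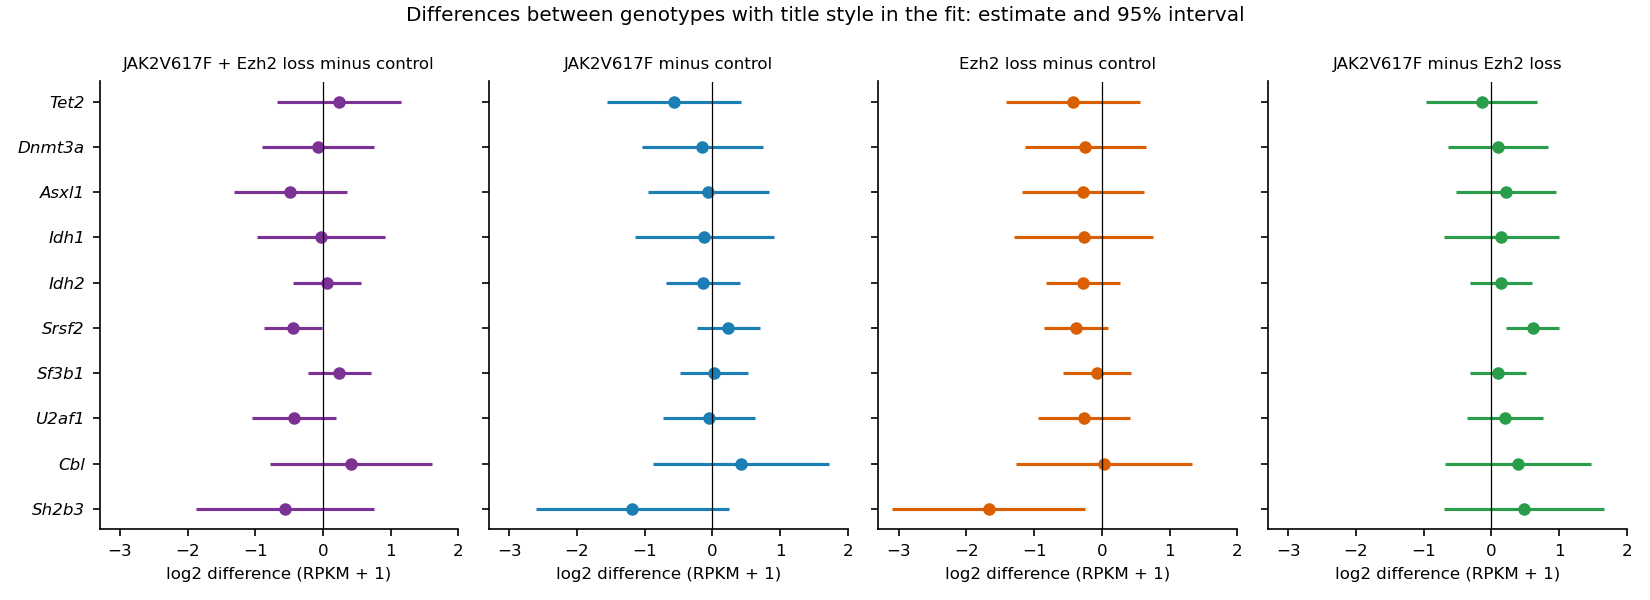
Log2 difference of RPKM + 1 (x axis) with its 95% interval for each gene (y axis) in 4 comparisons, from the fit with title style as a term. No gene passed the adjusted threshold; the intervals of Sh2b3 for Ezh2 loss against control (-3.09 to -0.25) and of Srsf2 for the double mutant against control (-0.88 to -0.01) and JAK2V617F against Ezh2 loss (0.22 to 1.0) lie to one side of 0.

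Tet2 and Dnmt3a, the pair that removes and writes DNA methylation, had overlapping ranges in all 4 genotypes. Tet2 (chr3:133463679-133545139, minus strand, GRCm38) ranged from 1.47 to 10.8 RPKM with a median of 6.31 in double-mutant, from 0.725 to 6.78 with a median of 3.64 in JAK2V617F and from 1.08 to 6.28 with a median of 4.0 in Ezh2 loss libraries. The 5 control libraries had 3.97, 4.94, 3.73, 6.93 and 3.27 RPKM. Each mutant group held at least 1 library below the lowest control, and all groups overlapped. Relative to control, the log2 difference of Tet2 was 0.24 in the double mutant (SE 0.44, adjusted p = 0.986), -0.57 in JAK2V617F (SE 0.48, adjusted p = 0.999) and -0.42 in Ezh2 loss (SE 0.48, adjusted p = 0.961). Single libraries weighed on these values: JAK2V617F was at -0.23 without its replicate 1, Ezh2 loss at -0.13 without its replicate 3, and they were at -0.92 and -0.77 without control replicate 5, none of them called. The double mutant was at 0.063 without control replicate 5 and at 0.45 without its own replicate 1. Dnmt3a (chr12:3806007-3914443, plus strand) averaged 8.01 ± 3.64 RPKM in double-mutant, 8.76 ± 4.05 in JAK2V617F, 7.77 ± 2.47 in Ezh2 loss and 8.43 ± 2.58 in control libraries (SD). Its control libraries read 4.61, 8.51, 9.86, 7.65 and 11.5 RPKM, and the lowest and highest values of the series (3.30 and 15.1 RPKM) were in a double-mutant and a JAK2V617F library. The 95% interval for the double mutant against control was 0.536 to 1.68-fold, so a 2-fold rise of Dnmt3a lies outside it.

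Among the relatives of this pair, Dnmt1, the maintenance methyltransferase, had a median of 9.70 RPKM over the 26 libraries, Dnmt3b one of 8.81 RPKM and Dnmt3a one of 8.63 RPKM. Tet1 averaged 2.20 and Tet3 2.62 RPKM, below Tet2, while Dnmt3l, the catalytically inactive partner of Dnmt3a, was at 0 in 25 of 26 libraries. Of 16 genes of DNA methylation and demethylation, 14 were tested and 0 were called in any genotype comparison. By title style, which called 11% of all tested genes and mostly in this direction, 3 of the 14 were called, all higher in number-first libraries: the methyl-CpG binding proteins Mbd2 (43.8 ± 21.8 against 13.7 ± 6.11 RPKM), Mbd1 (15.7 ± 5.67 against 4.02 ± 2.0) and Mbd4 (8.49 ± 4.32 against 3.70 ± 3.15).

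Asxl1 (chr2:153345829-153404007, plus strand) was at 1.25 to 10.2 RPKM with a median of 4.33 in double-mutant libraries, at 3.74 to 9.20 with a median of 6.32 in JAK2V617F and at 3.05 to 8.31 with a median of 5.12 in Ezh2 loss. The control libraries had 4.02, 6.78, 8.65, 4.07 and 6.83 RPKM. The double-mutant group held both the lowest and the highest Asxl1 value of the series, and its log2 difference from control was -0.48 (SE 0.40, adjusted p = 0.955). Asxl2, which also pairs with Bap1, averaged 6.83 RPKM, and Asxl3 was at 0 in 22 of 26 libraries. None of the 12 tested genes of the Asxl and Bap1 complex was called by genotype or by title style. Their median log2 difference from control was -0.41 in the double mutant, -0.19 in JAK2V617F and -0.06 in Ezh2 loss. For all tested genes it was -0.01, -0.02 and -0.03. Whether the list differed as a set was not tested.

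Idh1 and Idh2 were both well expressed, with the mitochondrial enzyme the higher of the pair. Idh2 (chr7:80094846-80115392, minus strand) averaged 194.6 ± 41.6 RPKM in double-mutant, 198 ± 76.2 in JAK2V617F, 177 ± 59.7 in Ezh2 loss and 192 ± 43.3 in control libraries (SD). Its interval was the narrowest among the metabolic and chromatin members, at 0.734 to 1.48-fold for the double mutant against control. Idh1 (chr1:65158616-65186500, minus strand) was at 14.4 to 77.0 RPKM (median 56.6) in double-mutant, 5.68 to 108 (median 51.9) in JAK2V617F and 28.0 to 58.9 (median 32.9) in Ezh2 loss libraries. Control libraries had 25.2, 51.4, 59.3, 49.9 and 57.3 RPKM. JAK2V617F cells thus held both extremes of Idh1, and the log2 difference from control was -0.12 (SE 0.50, adjusted p = 0.999). The other mitochondrial isocitrate dehydrogenase, an NAD-dependent complex, was also abundant, with Idh3g at 414, Idh3b at 229.9 and Idh3a at 86.0 RPKM. All 21 genes of isocitrate and 2-oxoglutarate metabolism were tested, and 0 were called by genotype. By title style 2 were called, against 11% of all tested genes. Idh3g was lower in number-first libraries (339 ± 57.3 against 515 ± 92.2 RPKM) and the citrate carrier Slc25a1 was higher (121 ± 21.7 against 59.2 ± 20.8).

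The splicing factors Srsf2 and U2af1 were the members that followed title style, and they moved in opposite directions. U2af1 was 64.3 ± 17.9 RPKM in number-first and 19.9 ± 8.66 RPKM in number-last libraries (SD, n = 15 and 11). The style term was 1.80 on the log2 scale (SE 0.27, adjusted p = 1.64e-05), or 3.49-fold with a 95% interval of 2.38 to 5.11. Srsf2 was 525.6 ± 156 RPKM in number-first and 979 ± 317 RPKM in number-last libraries, a log2 difference of -0.72 (SE 0.19, adjusted p = 0.00943). This comparison called 11% of all tested genes, 931 higher and 400 lower in number-first libraries, and read against that share the 2 of 10 members are not particular. Without JAK2V617F replicate 1 the Srsf2 difference was -0.51 and was not called (adjusted p = 0.0786). The Srsf2 step was not alike in all genotypes. JAK2V617F libraries averaged 578 ± 240 RPKM in number-first (n = 2) and 1262 ± 151 in number-last titles (n = 5). Ezh2 loss libraries averaged 593 ± 72.4 (n = 2) and 682 ± 133 RPKM (n = 5), with overlapping ranges (542 to 644 against 537 to 864). Control libraries averaged 598 ± 175 RPKM in number-first titles (n = 4), and the single number-last control had 1047 RPKM. HSC marker sums also moved with style, at 1335 to 2052 RPKM in number-first and 1035 to 1420 RPKM in number-last libraries, as did depth, and their part was not tested. The median of all genes was shifted by 0.17 in the same direction as U2af1. Relative to it, U2af1 stood further up and Srsf2 stood further down, and both kept their sign under median-ratio and TPM scaling.

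U2af1 (chr17:31647081-31658892, minus strand) did not overlap between the styles: its 15 number-first values lay between 37.4 and 97.1 RPKM and its 11 number-last values between 9.06 and 36.1 RPKM. Of all tested genes, 1.75% were without overlap in the same way. The step was present inside each genotype that holds both styles. JAK2V617F libraries averaged 67.4 ± 8.17 RPKM in number-first (n = 2) and 20.9 ± 7.30 in number-last titles (n = 5), and Ezh2 loss libraries 75.6 ± 30.4 (n = 2) and 17.7 ± 10.8 (n = 5). Control libraries had 82.6, 51.6, 56.3 and 96.1 RPKM in number-first titles and 25.9 RPKM in the single number-last title. As every double-mutant library was number-first, its 37.4 to 71.6 RPKM (median 56.3) can be set only against number-first controls, where the log2 difference was -0.34 (SE 0.26, adjusted p = 0.844). The lowest value, 9.06 RPKM in Ezh2 loss replicate 5, rested on 69 reads by the estimated depth, and the highest read number was 1774.

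U2af1 has a near-identical copy elsewhere in the genome, which bears on how its reads could be placed. Gm10232, a processed pseudogene at chr17:3044014-3044733 on the minus strand, is 720 bases long and matches 718 bases of the 720-base U2af1 coding sequence. The 2 stretches that hold the differing bases are printed from the GENCODE M21 transcripts (GRCm38), 5′ to 3′, with each differing base in capitals. They are bases 106 to 165 and 174 to 233, counted from the A of the start codon.
U2af1, bases 106 to 165: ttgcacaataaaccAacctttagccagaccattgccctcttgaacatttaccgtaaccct
Gm10232, bases 106 to 165: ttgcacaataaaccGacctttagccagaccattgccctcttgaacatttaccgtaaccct
U2af1, bases 174 to 233: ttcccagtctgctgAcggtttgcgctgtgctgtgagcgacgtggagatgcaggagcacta
Gm10232, bases 174 to 233: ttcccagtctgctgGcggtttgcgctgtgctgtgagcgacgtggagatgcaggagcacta
A read from within the coding sequence that covers neither capital is the same in both, so the level given for U2af1 depends on how the authors counted reads with more than one place, which is not given in the sources used here. Gm10232 was not a row of the table analysed. Another processed pseudogene, Gm18959 at chr7:99945062-99945716, matches 349 bases at 96.6% identity. In all, 3 other genes match U2af1 over at least 150 bases at 90% identity, not all of them named here. The part of these copies in the difference by title style was not tested. Cbl is matched in part by 17 other genes, among them the processed pseudogene Gm6695 over 968 bases at 94.2% identity, and no other member apart from these 2 had a match of at least 150 bases at 90% identity outside its own locus.

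**Figure D3:**
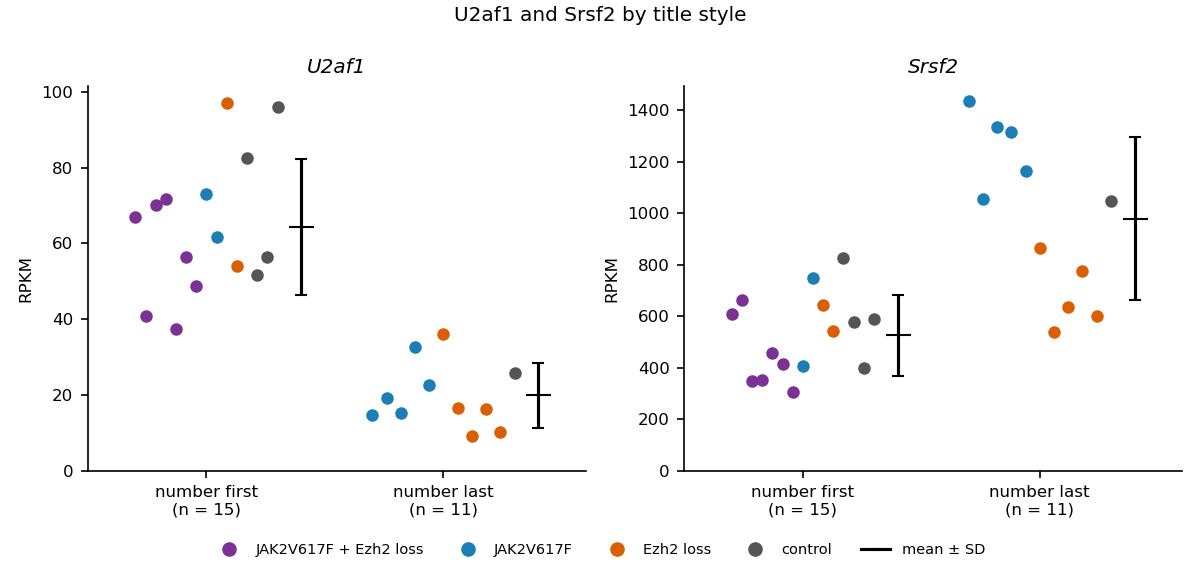
RPKM of U2af1 and Srsf2 (y axis, linear from 0) in number-first (left) and number-last (right) libraries, coloured by genotype, with mean ± SD in black. U2af1 does not overlap between styles (37.4 to 97.1 against 9.06 to 36.1 RPKM), and the number-last JAK2V617F points of Srsf2 (1057 to 1437 RPKM) lie above the number-last Ezh2 loss points (537 to 864 RPKM).

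Of 26 genes of 3′ splice site recognition 25 were tested and 0 were called by genotype. By title style 4 were called, U2af1 among them and all higher in number-first libraries, a share not far from the 11% of all genes. Sf3a2, a subunit of the U2 snRNP, averaged 43.2 ± 13.7 RPKM in number-first and 1.17 ± 0.95 RPKM in number-last libraries (log2 difference 4.37, SE 0.34, adjusted p = 4.58e-11). Sf3b4, a partner of Sf3b1, averaged 44.6 ± 9.31 against 8.01 ± 4.83 RPKM. U2af2, which forms the U2AF heterodimer with U2af1, averaged 17.4 ± 8.35 against 1.96 ± 1.44 RPKM. The median log2 difference of the 25 was 0.12, and that of all tested genes was 0.17. U2af1l4, a paralogue of U2af1, averaged 131 ± 27.4 RPKM in number-first and 123 ± 40.2 RPKM in number-last libraries and was not called.

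Sf3b1 (chr1:54985169-55027481, minus strand), the most often altered splicing factor in myeloid disease with ring sideroblasts, had the lowest coefficient of variation of the members over the 26 libraries, though not within each group. It averaged 89.4 ± 17.2 RPKM in double-mutant, 84.2 ± 28.5 in JAK2V617F, 76.5 ± 18.1 in Ezh2 loss and 76.7 ± 16.5 in control libraries (SD). Control libraries read 103, 80.6, 60.4, 73.3 and 66.3 RPKM. Number-first and number-last libraries were at 82.2 ± 19.1 and 82.0 ± 23.1 RPKM. The largest log2 difference among genotypes was 0.32 between the double mutant and Ezh2 loss (SE 0.25, adjusted p = 0.793).

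Srsf2 (chr11:116849901-116853094, minus strand) had the smallest adjusted p of any member between genotypes, in JAK2V617F against Ezh2 loss. The log2 difference was 0.61 (SE 0.19, 95% interval 0.22 to 1.0) and did not pass adjustment (adjusted p = 0.318). The 2 single-mutant groups have the same balance of styles, and the difference sat in the number-last titles. There JAK2V617F replicates 2, 4, 5, 6 and 7 had 1437, 1057, 1335, 1317 and 1163 RPKM, and Ezh2 loss replicates 1, 2, 5, 6 and 7 had 864, 537, 635, 774 and 602 RPKM. These groups of 5 did not overlap, as was true of 1.13% of tested genes. In number-first titles JAK2V617F had 409 and 748 RPKM and Ezh2 loss 644 and 542 RPKM, which overlap. A fit to the number-last libraries alone, chosen after the values were seen, called Srsf2 (log2 difference 0.90, SE 0.14, adjusted p = 0.0265) along with 0.109% of 10048 genes. In a fit of all 14 single-mutant libraries by genotype and style, also chosen after the values were seen, the same number-last difference of 0.90 had an SE of 0.17 and was not called (adjusted p = 0.0685). With single libraries left out of the number-last fit the adjusted p ran from 0.00829 to 0.0878, and it was above 0.05 without any 1 of JAK2V617F replicates 2, 5, 6 and 7 and of Ezh2 loss replicates 2, 5 and 7. In the fit of 14 libraries, the difference between styles in this contrast was 0.99 on the log2 scale (SE 0.32, 95% interval 0.32 to 1.67) and did not pass (adjusted p = 1).

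In these number-last libraries, the summed levels of markers of mature cells moved with the same contrast, but not every marker did. The neutrophil and monocyte list summed to 405 to 738 RPKM in the 5 JAK2V617F libraries and to 742 to 38621 RPKM in the 5 Ezh2 loss libraries. Within it, Prtn3 averaged 462 ± 125 RPKM in these JAK2V617F libraries (325 to 665) and 449 ± 77.4 RPKM in these Ezh2 loss libraries (SD). Ctsg and Csf1r were at 0 in all of both groups. The erythroid list (10 of 12 in the table, Hba-a1 and Hba-a2 at 0 throughout) summed to 2.46 to 32.0 RPKM in JAK2V617F and to 33.0 to 6107 RPKM in Ezh2 loss. Of these lists, the neutrophil granule gene Retnlg (log2 difference -5.54, SE 1.08, adjusted p = 0.0217) and the globin gene Beta-s (-6.14, SE 1.0, adjusted p = 0.00337) were called in JAK2V617F against Ezh2 loss. Both values are from the fit of all libraries with title style as a term, not from the number-last libraries alone. The part of these markers in the Srsf2 difference was not tested.

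Across the other pairs, Srsf2 was 305 to 662 RPKM (median 416) in double-mutant libraries, and the 5 control libraries had 825, 578, 398, 590.0 and 1047 RPKM. The log2 difference of the double mutant from control was -0.44 (SE 0.21, adjusted p = 0.803), and in number-first libraries alone it was -0.42 (SE 0.23, adjusted p = 0.775). With JAK2V617F as the comparison, Srsf2 in double-mutant cells stood at -0.68 (SE 0.23, adjusted p = 0.370). Without the style term the same difference was -1.19 and was called (adjusted p = 0.0133, with 2.26% of genes called), and in number-first libraries alone it was -0.35 (SE 0.30, adjusted p = 0.909). Genes on the opposite strand share exons with Srsf2: Mettl23 over 460 bases (15.6% of the exon length) and Mfsd11 over 288 bases (9.74%). Whether the counts used strand is not given in the sources used here, so reads in those parts cannot be assigned. Mettl23 went the other way from Srsf2 by style, with 109 ± 19.6 RPKM in number-first and 74.3 ± 16.2 RPKM in number-last libraries.

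Of 19 tested SR proteins and their kinases, Srsf2 included, 4 were called by title style, against 11% of all genes, and 0 by genotype. Srsf9 (139.8 ± 51.5 against 39.7 ± 18.7 RPKM) and Srsf3 (151 ± 19.5 against 99.2 ± 18 RPKM) were higher in number-first libraries. Srsf2 and Clk1, a kinase that phosphorylates SR proteins (175 ± 47.2 against 258 ± 61.4 RPKM), were lower. Srsf7, at 411 RPKM, varied by 12.5% over the 26 libraries and was not called.

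Cbl and Sh2b3, the negative regulators of cytokine and growth factor signalling, had the lowest means of the members over all libraries. They were the only members at 0 in some libraries. The order was not the same in each genotype. Sh2b3 averaged 6.61 RPKM in control libraries, above Asxl1 (6.07) and Tet2 (4.57). In double-mutant libraries it averaged 4.44 RPKM, above Asxl1 (4.31). Cbl (chr9:44142976-44234049, minus strand) ranged from 0.057 to 7.27 RPKM (median 1.22) in double-mutant, from 0 to 4.70 (median 0.94) in JAK2V617F and from 0 to 6.34 (median 0.12) in Ezh2 loss libraries. The control libraries had 0.470, 0.426, 2.60, 2.83 and 0 RPKM. Cbl had no read in 4 libraries, namely JAK2V617F replicate 6, Ezh2 loss replicates 1 and 4 and control replicate 5. At these depths a count of 0 allows up to 3 reads, or 0.0661, 0.0675, 0.0237 and 0.0484 RPKM in that order. Its log2 difference was 0.41 (SE 0.59) for the double mutant, 0.43 (SE 0.63) for JAK2V617F and 0.03 (SE 0.63) for Ezh2 loss against control, with adjusted p of 0.981 to 0.999. The 95% interval for Ezh2 loss against control, 0.416 to 2.51-fold on RPKM + 1, takes in a 2-fold change either way.

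**Figure D4:**
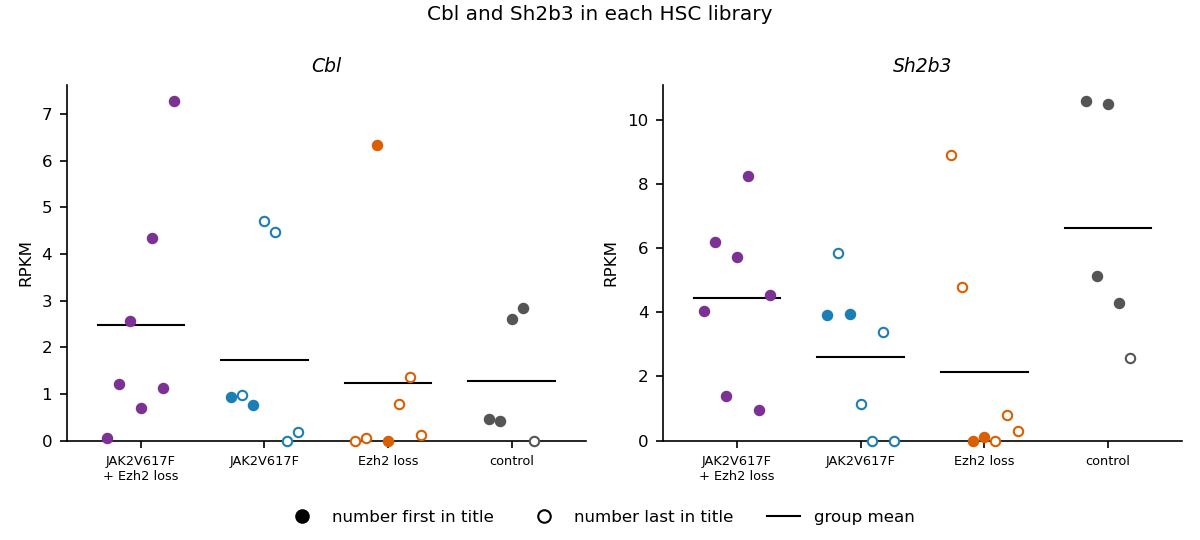
RPKM of Cbl and Sh2b3 (y axis, linear from 0) in each library by genotype (x axis), with filled points for number-first and open points for number-last titles and black lines for group means. Both genes reach 0 in single libraries of several groups; Sh2b3 is below 1 RPKM in 5 of 7 Ezh2 loss libraries and at 2.58 RPKM or more in all 5 controls.

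Sh2b3 (chr5:121815488-121837646, minus strand) had its lowest mean in Ezh2 loss HSCs (2.13 ± 3.44 RPKM, SD) and its highest in control HSCs (6.61 ± 3.69 RPKM). The double-mutant libraries had 4.04, 6.19, 1.39, 5.72, 8.24, 0.938 and 4.52 RPKM in replicate order. The JAK2V617F libraries had 3.92, 5.84, 3.93, 1.13, 0, 3.38 and 0 RPKM. The Ezh2 loss libraries had 8.90, 4.79, 0, 0.0970, 0, 0.798 and 0.310 RPKM. The control libraries had 10.6, 5.13, 10.5, 4.27 and 2.58 RPKM. No control library was near 0, and the Ezh2 loss group was split between a pair of libraries inside the control range and 5 below it. Its log2 difference for Ezh2 loss against control was -1.67 (SE 0.70, 95% interval -3.09 to -0.25) and did not pass (adjusted p = 0.782). The differences were -1.18 in JAK2V617F (SE 0.70, adjusted p = 0.999) and -0.55 in the double mutant (SE 0.64, adjusted p = 0.974), each relative to control. Sh2b3 in the double mutant stood between that of the single mutants and control, and the interaction was 2.30 (SE 1.10, 95% interval 0.04 to 4.55, adjusted p = 0.805). These comparisons share the control libraries. Neutrophil and monocyte marker sums had a higher median in Ezh2 loss (16322 RPKM) than in control libraries (417 RPKM). Their ranges overlapped (742 to 38621 against 263 to 821 RPKM). Erythroid marker sums were also higher (median 1434, 33.0 to 6107 RPKM, against median 31.5, 25.7 to 32.8 RPKM). No gene of either list was called in Ezh2 loss against control, and the part of these markers in the Sh2b3 values was not tested.

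The size of the Sh2b3 difference depended on the number added before taking logs, as its values lie near that number. It was -3.22 with 0.1 and -0.71 with 5 in place of 1, and it was not called under either. In number-first libraries alone, where Ezh2 loss had only 0 and 0.0970 RPKM (0 and 6 reads), the difference was -2.95 (SE 0.70, adjusted p = 0.216). In number-last libraries Ezh2 loss averaged 2.96 ± 3.84 RPKM (SD, n = 5), and the single control library had 2.58 RPKM. The main fit gives title style a single shift shared by all genotypes, so its Sh2b3 values do not show this difference between styles. The Ezh2 loss libraries at 0, replicates 3 and 5, allow up to 0.0848 and 0.155 RPKM by the limit of 3 reads, and the JAK2V617F libraries at 0, replicates 5 and 7, up to 0.0748 and 0.143 RPKM. Sh2b3 shares 99 exon bases (2.06%) with Atxn2 on the opposite strand.

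Of 22 genes for Cbl and Sh2b adaptors and the attenuation of receptor kinases, 20 were tested and 0 were called by genotype. Cblb, a relative of Cbl, averaged 2.57 RPKM and Cblc was at 0 in 25 of 26 libraries. Sh2b1 averaged 15.1 RPKM, above Sh2b3, and Sh2b2 was at 0 in 11 of 26 libraries. By title style, which called 11% of all tested genes, the receptor kinase antagonists Spry1 and Spry2 were called in opposite directions. Spry1 averaged 20.0 ± 10.2 RPKM in number-first and 3.78 ± 3.71 RPKM in number-last libraries, and Spry2 averaged 28.5 ± 15.2 against 132 ± 60.5 RPKM.

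The chaperone Calr, itself a driver of the same disease, averaged 285 ± 45.4 RPKM in double-mutant, 174 ± 76.0 in JAK2V617F, 192 ± 73.1 in Ezh2 loss and 265 ± 93.0 in control libraries (SD). It was not called by genotype and was higher in number-first libraries (283 ± 57.7 against 149 ± 36.2 RPKM, adjusted p = 0.000756). Of 33 tested genes among 35 others mutated in myeloid neoplasms, 0 were called by genotype and 4 by title style, against 11% of all tested genes. Gata2 (121 ± 33.3 against 54.2 ± 17.5 RPKM), Nfe2 (564 ± 61.1 against 363 ± 88.1) and Ppm1d (7.52 ± 6.22 against 2.50 ± 4.05) were higher and Nras (64.0 ± 22.3 against 90.1 ± 16.6) was lower in number-first libraries.

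Relations among the members were examined within each title style, since the styles stand apart. In the 15 number-first libraries Pearson's r over the 45 pairs ran from -0.56 to 0.65 with a median of 0.03, and 0 pairs passed adjustment over the 45 (permutation test, 100000 resamples, smallest adjusted p = 0.229). In the 11 number-last libraries r ran from -0.70 to 0.57, and 0 pairs passed (smallest adjusted p = 0.838). Both results used the values as measured. With the mean of each genotype subtracted, r in number-first libraries ran from -0.71 to 0.75, and 3 pairs passed (same permutation test, smallest adjusted p = 0.0255). In number-last libraries r then ran from -0.77 to 0.62, and 0 pairs passed (smallest adjusted p = 0.220). The resampling did not allow for the subtracted means. The genes whose pattern was most like that of each member, by r over the 26 libraries after the mean of each style was subtracted, are given as a description only, since these libraries share depth and genotype. For Idh2 it was the muscle-type enolase Eno3 (r = 0.88), for Srsf2 the G protein subunit Gnb1 (0.83) and for U2af1 the spliceosomal Sm-like protein Lsm3 (0.80). For Idh1 it was Ibtk (0.78), for Sf3b1 the translation factor Eif4g2 (0.77), and for Asxl1 the transcriptional corepressors Ctbp2 (0.75) and Ctbp1 (0.74). The highest values were lower for Dnmt3a (Dgkz, 0.71), Tet2 (Sema4d, 0.69), Sh2b3 (Cox4i2, 0.67) and Cbl (Ltbp4, 0.67).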

How the data were processed

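The authors deposited 1 table of RPKM values (reads per gene length and sequencing depth) with 1 column for each of the 26 libraries; 0 columns were unmapped. The genome build (mm10/GRCm38) and the tools Subread 1.5.0, SAMtools 0.1.19 and STAR 2.4.2a come from the submitters' processing notes, without roles. How multiply placed reads were counted, with which annotation and settings, is not given in the sources used here. RPKM per gene is set by the library total, so a few very high genes lower all others.

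Groups come from the genotype labels, and replicates were numbered by accession order, which pairs no libraries. Genes reaching 1 RPKM in 5 or more libraries (12116 of 23416) were fitted with limma 3.58.1 in R 4.3.3 on log2(RPKM + 1), with 4 genotype means, a title style term, 1 spread for all libraries and eBayes with trend and robust settings. Tests were two-sided with Benjamini-Hochberg adjustment over all tested genes, checked on simulated data. Adjusted p-values are from limma unless another test is named. Fold changes are on the RPKM + 1 scale and understate changes of low genes. Reads were estimated from the whole-number steps of low RPKM values within a tolerance of 0.01. The limits for values of 0 (3 reads) cover counting error only, and reads have no molecular identifiers. Coordinates and copies come from GENCODE M21 on GRCm38, with BLAST 2.17.0.

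The 10 genes and the gene lists were chosen with earlier results of these data known. All members are named; of each list, genes with adjusted p under 0.05 are named, at most 4 per list and comparison by smallest p; relatives are named by level; and for likeness up to 2 of the most similar genes per member were named, passing over predicted genes and pseudogenes. Mettl23 and Mfsd11 were added because they share exons with Srsf2. Some genes of the lists are not reported here. Alternatives covered the style term, the libraries in the fit, the pseudocount (0.1 and 5), the filter, scaling, array weights and leaving out each library. The fits within number-last libraries and the test of the difference between styles were chosen after seeing the data.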

Additional observations from a re-analysis of the deposited data

Results flagged for a closer look

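Among the 40 sets of 4 genotypes and 10 genes, 3 held a library that stood far from the others of its group by Dixon's test at the 95% level, and chance gives about 1 in 20 such sets. Asxl1 was 10.2 RPKM in double-mutant replicate 2, against a group median of 4.33 RPKM. Cbl was 6.34 RPKM in Ezh2 loss replicate 3, against a group median of 0.12 RPKM. Idh1 was 25.2 RPKM in control replicate 1, against a group median of 51.4 RPKM. None of the 3 genes was called between genotypes. Without Ezh2 loss replicate 3, the log2 difference of Cbl for Ezh2 loss against control was -0.57, against 0.03 with it, and it was not called in either fit.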

How the results depend on the processing

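Over 53 results for the 10 genes, 483 of 516 values under settings that left out no single library kept direction and call, 31 turned direction, 2 gained a call and 0 lost one. With 1 library left out, 1331 of 1378 values kept both and 46 turned direction. No called value turned direction, and reversed values under the first kind of setting were at most 0.55 in size. The cause of these changes was not tested.

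Without the title style term, the counts of called genes were 0 for the double mutant against control, 1 for JAK2V617F against control, 85 for the double mutant against Ezh2 loss, 274 for the double mutant against JAK2V617F and 215 for the interaction. Cbl was then -0.23 for Ezh2 loss and Asxl1 0.077 for JAK2V617F against control, and Srsf2 was called at -1.19 for the double mutant against JAK2V617F. In number-first libraries alone, the counts were 0 for the double mutant against control, 0 for JAK2V617F against Ezh2 loss, 8 for the double mutant against Ezh2 loss and 8 against JAK2V617F. Reversed there were Idh1 at 0.062 (double mutant), Srsf2 at 0.030 and U2af1 at 0.064 (Ezh2 loss), and Asxl1 at 0.13, Idh1 at 0.21, Idh2 at 0.031, Srsf2 at -0.065, Sf3b1 at -0.23 and Cbl at -0.33 (JAK2V617F), each against control. For JAK2V617F against Ezh2 loss, Srsf2 at -0.096, Sf3b1 at -0.13, U2af1 at -0.11 and Cbl at -0.55 were reversed.

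With the compared groups alone, the counts against control were 0 for the double mutant and 2 for Ezh2 loss, and Idh1 was 0.062 (double mutant), Sf3b1 0.013 (Ezh2 loss) and Asxl1 0.032 (JAK2V617F). A pseudocount of 0.1 called 1 gene for JAK2V617F against control and gave Cbl -0.13 for Ezh2 loss. With no filter the counts were 2 for the double mutant against control, 7 for JAK2V617F against Ezh2 loss, 1 for the double mutant against Ezh2 loss and 1 for the interaction. A filter at 5 RPKM gave 4 for the double mutant against control. TPM scaling gave 4 there and 7 for the double mutant against JAK2V617F, with Idh1 at 0.0071 (double mutant), Cbl at -0.016 (Ezh2 loss) and Sf3b1 at -0.0035 (JAK2V617F) against control. Array weights gave 6 and 12 for the same counts, with Idh1 at 0.028, Cbl at -0.35 and Sf3b1 at -0.0049.

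Title numbers were shared by 4 number-last pairs of JAK2V617F and Ezh2 loss libraries. Their deviations correlated at 0.0057, -0.057, 0.013 and 0.023, and 1 of 4 correlated best with its own number. The labels do not say what the number marks, and 4 pairs are too few to show whether such libraries share an origin. With the replicate block 1 gene was called and without it 3, and Idh1 was -0.15 and Idh2 -0.028 in both fits. In all number-last libraries, a setting added after the data were seen, Srsf2 was called at 0.90, and Tet2 was 0.021 and Sh2b3 -0.22.

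With single libraries left out, the counts ran from 0 (without control replicate 3) to 6 (without double-mutant replicate 1) for the double mutant against control, 0 to 1 for Ezh2 loss and 0 to 1 for JAK2V617F against control, 0 to 1 for the double mutant against Ezh2 loss, 3 to 8 against JAK2V617F and 0 to 1 for the interaction. For the double mutant against control, Dnmt3a ran from -0.25 to 0.082, Idh1 from -0.27 to 0.24 and Idh2 from -0.010 to 0.13. For Ezh2 loss against control, Sf3b1 ran from -0.21 to 0.030 and Cbl from -0.57 to 0.40. For JAK2V617F against control, Asxl1 ran from -0.17 to 0.061, Idh1 from -0.31 to 0.20, Idh2 from -0.23 to 0.014, Sf3b1 from -0.11 to 0.24 and U2af1 from -0.16 to 0.11. For JAK2V617F against Ezh2 loss, Tet2 ran from -0.32 to 0.055, Dnmt3a from -0.046 to 0.26, Idh1 from -0.095 to 0.60 and Sf3b1 from -0.024 to 0.23. By title style, Idh1 ran from -0.14 to 0.24, Sf3b1 from -0.23 to 0.052, Sh2b3 from -0.12 to 0.47 and Srsf2 from -0.86 to -0.51, the last without JAK2V617F replicate 1 and not called. Estimated reads per library ran from 0 to 682 for Cbl and from 0 to 527 for Sh2b3.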
